A study of Oryzias latipes with 48 samples.

Results

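The comparison set the brain and pituitary RNA of medaka at the spring equinox and summer solstice against that at the autumn equinox and winter solstice. All 48 libraries of the series entered it, 24 from spring and summer and 24 from autumn and winter. A gene was taken as a member when it differed in the same direction in all 4 pairs of seasons across the divide, which are spring against autumn, spring against winter, summer against autumn and summer against winter. Each of the 4 differences had to reach an adjusted p below 0.05 (limma, Benjamini-Hochberg over all genes tested). Of 26167 genes in the file, 16622 had a mean of at least 1 FPKM and were tested. The members were 918 of these (5.52%), with 301 higher (1.81%) and 617 lower (3.71%) in spring and summer. Under a median-ratio scaling the members numbered 432 higher and 476 lower, and under quantile normalization 435 higher and 488 lower. The 3 spring libraries at clock hour 2 (replicate 1), clock hour 18 (replicate 1) and clock hour 22 (replicate 2) stand apart from the rest of their season, and without them the members numbered 270 higher and 479 lower.

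The tissue, per the labels, was hypothalamus and pituitary together with the ventral part of the telencephalon, from Oryzias latipes kept outdoors under natural conditions. Fish were taken every 4 h over 24 h, at clock hours 2, 6, 10, 14, 18 and 22, and each clock hour of a season has 2 libraries. All groups share species, tissue and housing, and no agent or genotype separates them. The sources used here give no strain, sex, age or number of fish per library. Sampling ran over a pair of calendar years and the labels do not say which season fell in which, and every season is a single 24 h series, so effects of season and of batch or year cannot be told apart. No label says that the libraries are separate fish, and the p-values therefore rest on the spread from library to library. The tissue is a mixture, and fewer cells of a type and less RNA per cell cannot be told apart in any result that follows.

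Medaka breed when days are long and water is warm. Breeding state at the sampling dates was not examined here, so the groups are not taken as breeding and resting fish. The hypothalamus receives the seasonal signals, day length and temperature, and drives the pituitary through gonadotropin-releasing hormone. The pituitary gonadotropins then act on the gonads, whose steroids feed back on the brain. Spring and autumn equinoxes have the same day length while it moves in opposite directions, so a division into spring with summer and autumn with winter is not a division by day length alone.

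Members differed by small amounts. The median size of the difference between the 24 and 24 libraries was 0.26 on the log2(FPKM + 1) scale, a 1.2-fold difference, and the range over members ran from 1.07-fold to 2.7-fold. Over all tested genes the median size was 0.099. A difference of at least 1.5-fold was present in 34 members (17 higher, 17 lower) and one of at least 2-fold in 3. These sizes come from the values that chose the members and are a description. The direction was the same at all 6 clock hours in 832 of the 918 members (against 34.5% of all tested genes), at 5 hours in 82 and at 4 or fewer in 4. The same libraries chose the members, so this count too is fixed in part by the rule and is a description.

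The plot of medians by library shows the members as sets. In spring the median deviation of the 301 higher members from each gene's own mean lay between 0.07 and 0.19 (log2 scale, median library 0.12), and in summer between 0.00 and 0.20 (median 0.13). In autumn it lay between -0.19 and 0.02 (median -0.12), and in winter between -0.19 and -0.08 (median -0.13). Only the summer library lowest in this measure and the autumn library highest in it met, and winter did not overlap with spring or summer. The 617 lower members ran from -0.31 to -0.03 in spring and from -0.27 to 0.01 in summer, against -0.02 to 0.21 in autumn and 0.01 to 0.26 in winter. The 3 spring libraries that stand apart were the lowest of spring, at -0.31, -0.26 and -0.23. Summer libraries at clock hour 22 (replicate 1) and clock hour 10 (replicate 2) reached -0.268 and -0.255. Both were kept in the fit without the 3 spring libraries. The median over all tested genes stayed between -0.07 and 0.07 in every library. A direction over the set as a whole is fixed by how members were chosen and carries no test.

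**Figure D1:**
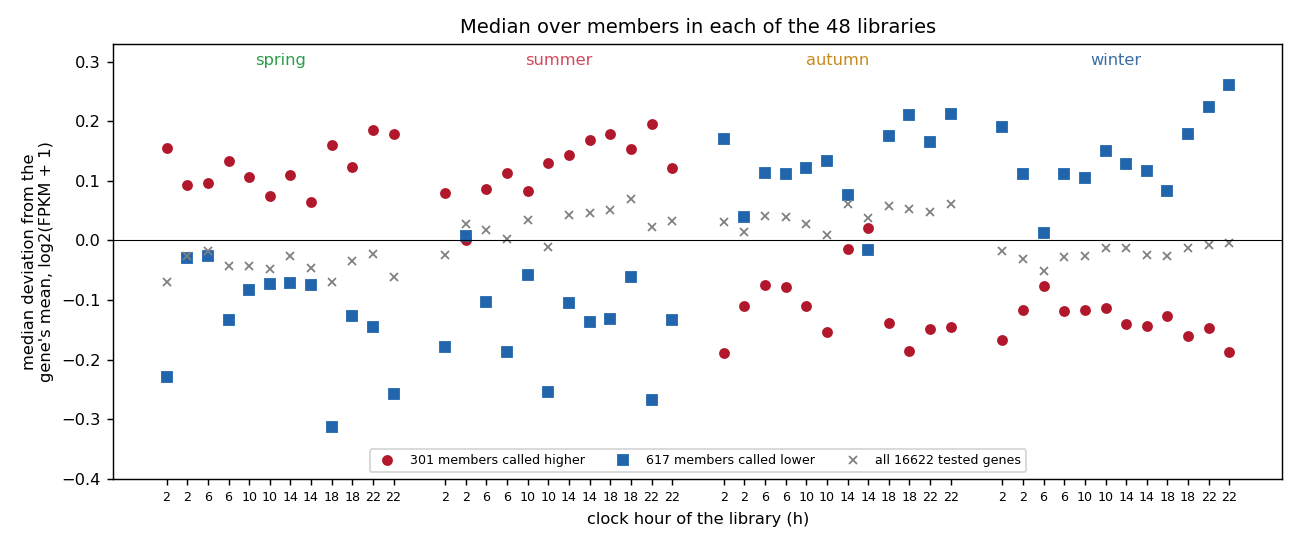
Median deviation from each gene's mean over 48 libraries (log2(FPKM + 1), vertical axis) in each library, ordered by season and clock hour (horizontal axis), for the 301 higher members, the 617 lower members and all 16622 tested genes. Higher members lie above 0 in spring and summer apart from the lowest summer library, lower members lie below 0 there apart from 1 summer library, and all tested genes stay between -0.07 and 0.07.

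The members were few beside the number of genes that differed in single pairs. Spring and autumn differed in 72.4% of tested genes (27.3% higher and 45.1% lower in spring) and spring and winter in 49.4% (21.3% and 28.1%). Summer and autumn differed in 43.6% (19.4% higher and 24.2% lower in summer) and summer and winter in 74.9% (42.0% and 32.9%). Across the 16622 genes the difference between spring and autumn and that between summer and winter, which share no library, had r = -0.688, and the difference between spring and winter had r = 0.245 with that between summer and autumn. These correlations are across genes, which are not independent replicates. Of the 2603 genes called in all 4 pairs, 918 kept 1 direction and are the members. Another 1075 genes had the same sign in all 4 pairs but were called in 3. The same rule gave 7597 genes (45.7% of those tested) for summer with autumn against spring with winter, and 163 (0.981%) for the solstices against the equinoxes. The 3 counts were not tested against each other.

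**Figure D2:**
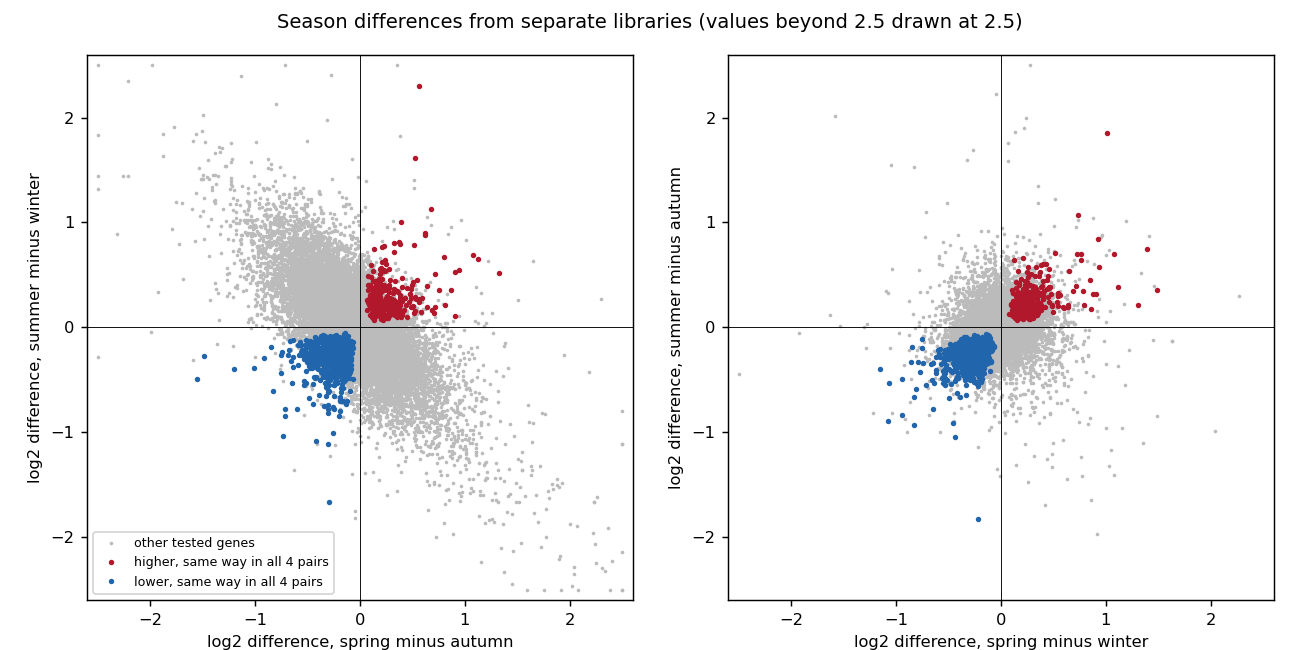
Log2 differences of 16622 tested genes in 2 season pairs without shared libraries, spring minus autumn against summer minus winter (left) and spring minus winter against summer minus autumn (right), with higher members in red and lower members in blue. By the rule, the members lie in the upper right and lower left of each panel. Their differences are small (median of the smallest pair difference 0.170). The r of the left panel is -0.688.

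When each of the 2 groups was compared as a whole (mean of its 12 season-by-hour groups), 54.8% of tested genes were called, 23.8% higher and 31.0% lower in spring and summer. This wider call lets a single season carry a difference, and 8185 of the 9103 genes it called were not members. It served for the counts of the gene lists. With season as the unit, 2 seasons against 2 with 2 residual degrees of freedom, limma called 0 genes and 135 had an unadjusted p below 0.05. That is a smaller share of the 16622 genes than 0.05, the share the threshold gives where no gene differs.

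Among the pituitary hormones, the subunit shared by the gonadotropins and thyrotropin and the fish hormone somatolactin were higher in both spring and summer. In all, 11 hormone genes were tested: 6 (54.5%) were called higher and 3 (27.3%) lower in the wider comparison, and 3 were members. Among all tested genes the shares were 23.8% and 31.0%, with 5.52% members. Transcripts of cga, the alpha subunit that pairs with each beta subunit, measured 418 to 779 FPKM in spring (median 588), 481 to 979.7 in summer (median 749), 224 to 654 in autumn (median 335) and 235 to 618 in winter (median 327). Both spring and summer medians stood above those of autumn and winter, although the ranges overlapped. The difference was 0.90 ± 0.06 (SE) on the log2 scale. Somatolactin (LOC100049402), a pituitary relative of growth hormone and prolactin that is found in fishes, measured 113 to 297 FPKM in spring (median 151), 90.2 to 272 in summer (median 214), 70.7 to 174 in autumn (median 114) and 24.1 to 166 in winter (median 64.2). It was lowest in winter, its ranges overlapped, and the difference was 1.07 ± 0.11 (SE). A proopiomelanocortin-like gene (LOC101164777) was lower in spring and summer at a low level, 0.77 to 1.59 FPKM in spring (median 1.1), 0.34 to 0.77 in summer (median 0.515), 1.32 to 2.34 in autumn (median 1.58) and 1.8 to 2.69 in winter (median 2.35), with a difference of -0.71 ± 0.04 (SE). Its summer libraries did not overlap with those of autumn or winter.

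The beta subunits that give the gonadotropins their identity did not follow the split. Luteinizing hormone beta, lhb, which drives ovulation, measured 4.58 to 14.3 FPKM in spring (median 9.37), 82.3 to 271 in summer (median 155), 21.5 to 51.4 in autumn (median 37) and 4.54 to 9.39 in winter (median 7.26). It was highest in summer, and spring minus autumn was -1.98 (log2 scale, adjusted p = 3.00e-14), so that its difference of 1.12 ± 0.09 (SE) between the groups rests on summer. Follicle-stimulating hormone beta, fshb, which supports the growth of eggs and sperm, measured 72.4 to 170.4 FPKM in spring (median 83.5), 105 to 251 in summer (median 186), 35.9 to 64.8 in autumn (median 46.1) and 58.6 to 118 in winter (median 91.7). Its spring and winter libraries overlapped and their difference of 0.13 was not called (adjusted p = 0.421). Growth hormone (LOC101171460), for comparison, differed by -0.04 ± 0.10 (SE) between the groups (adjusted p = 0.747), with medians of 3351, 1200.3, 2005 and 2459 FPKM in spring, summer, autumn and winter. The thyrotropin beta-like gene (LOC101171658) and prolactin (LOC101172582) were called higher by 0.31 and 0.33. Both had their lowest median in winter (22.5 and 910.5 FPKM), while their autumn medians (53.4 and 1985 FPKM) were above those of spring (50.4 and 1532 FPKM). The main proopiomelanocortin gene, pomc, the precursor of corticotropin and melanotropin, was called lower, at -0.58 ± 0.09 (SE). Its summer mean lay above that of winter, against the direction of the call, and this difference missed the threshold (adjusted p = 0.0659).

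Brain aromatase, cyp19b, had the largest difference of all members. The enzyme makes estrogen from androgen and in fish brains sits in radial glia. It measured 132 to 219.7 FPKM in spring (median 170.0), 289 to 552 in summer (median 416), 89.8 to 134 in autumn (median 115) and 66.2 to 104 in winter (median 84.4). Summer stood clear of every other season, and spring overlapped with autumn by a narrow margin and not with winter. The difference was 1.43 ± 0.05 (SE). Within the pairs, summer also exceeded spring by 1.29 (adjusted p = 4.22e-16) and winter minus autumn was -0.45 (adjusted p = 9.67e-07). An androgen receptor gene (symbol ar-alpha, product name androgen receptor beta) was the other member among 21 tested genes of the reproductive axis. Its medians were 5.29, 5.12, 3.94 and 4.45 FPKM in spring, summer, autumn and winter, with overlap between all seasons and a difference of 0.25 ± 0.04 (SE). Of the 21 genes, 9 (42.9%) were called higher and 4 (19%) lower in the wider comparison, against 23.8% and 31.0% of all tested genes.

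The peptides that drive the axis were not members. Gonadotropin-releasing hormone (gnrh1) had medians of 0.79, 4.45, 0.94 and 1.16 FPKM, and neuropeptide B (npb_105354556), a peptide that takes part in female mating receptivity in medaka, of 71.1, 311, 86.3 and 62.7 FPKM. For gnrh1 and npb_105354556 the summer libraries stood above those of the other 3 seasons without overlap. For npb_105354556, spring minus autumn was -0.28 (adjusted p = 0.00173). The progesterone receptor pgr was called higher, at 0.33 ± 0.05 (SE), and kisspeptin kiss-2 lower, at -0.55 ± 0.14 (SE), neither with all 4 pairs called.

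Sex hormone-binding globulin, shbg, which carries sex steroids, ran the other way (this gene was named after its values were seen). It measured 2.91 to 4.94 FPKM in spring (median 4.11), 3.49 to 9.44 in summer (median 6.06), 6.31 to 19.9 in autumn (median 13.7) and 5.86 to 11.5 in winter (median 7.42). Autumn was highest, spring did not overlap with autumn or winter, and the difference was -0.88 ± 0.04 (SE). The retinoic acid-degrading enzyme cyp26b1 measured 1.72 to 2.84 FPKM in spring (median 2.15), 0.93 to 2.28 in summer (median 1.6), 4.46 to 12.7 in autumn (median 9.04) and 2.27 to 3.28 in winter (median 2.77). Its autumn libraries stood above all libraries of the other seasons, and spring minus winter was -0.22 against -1.55 for spring minus autumn. The difference over the groups was -1.02 ± 0.05 (SE). Of 28 retinoic acid genes tested, 11 (39.3%) were called higher and 10 (35.7%) lower, against 23.8% and 31.0% of all tested genes. Retinol dehydrogenase 12 (LOC101164605) was the other member among them. It remained a member in 39 of the 48 fits that left out 1 library, but not under either scaling or without the 3 spring libraries, which left cyp26b1 as the 1 member.

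The thyroid axis reads day length in birds and mammals, where thyrotropin acts on its receptor in the hypothalamus and deiodinases set the local hormone. The thyrotropin receptor (LOC101170361) was the member among 17 such genes tested (5.88%, against 5.52% of all tested genes). Of the 17, 4 were called higher and 4 lower (2 higher without the 3 spring libraries). These are 23.5% each, against 23.8% and 31.0% of all tested genes. The receptor measured 4.62 to 9.1 FPKM in spring (median 6.21), 5.36 to 10.3 in summer (median 7.74), 3.47 to 7.48 in autumn (median 5.59) and 3.29 to 6.06 in winter (median 4.92). All seasons overlapped, and the difference was 0.42 ± 0.05 (SE). The deiodinases did not pass: the differences were 0.20 ± 0.11 (SE) for dio1, -0.05 ± 0.05 (SE) for dio2 and -0.03 ± 0.04 (SE) for dio3, with adjusted p of 0.113, 0.404 and 0.56. A neuropeptide Y receptor type 1 gene (LOC101175094), for a receptor of the feeding peptide, was the member among 28 appetite genes (3.57%). Lower members were 3.71% of all tested genes, and the list held 2 members without the 3 spring libraries. The receptor gene had medians of 7.57, 7.71, 10.2 and 8.81 FPKM and a difference of -0.25 ± 0.03 (SE).

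**Figure D3:**
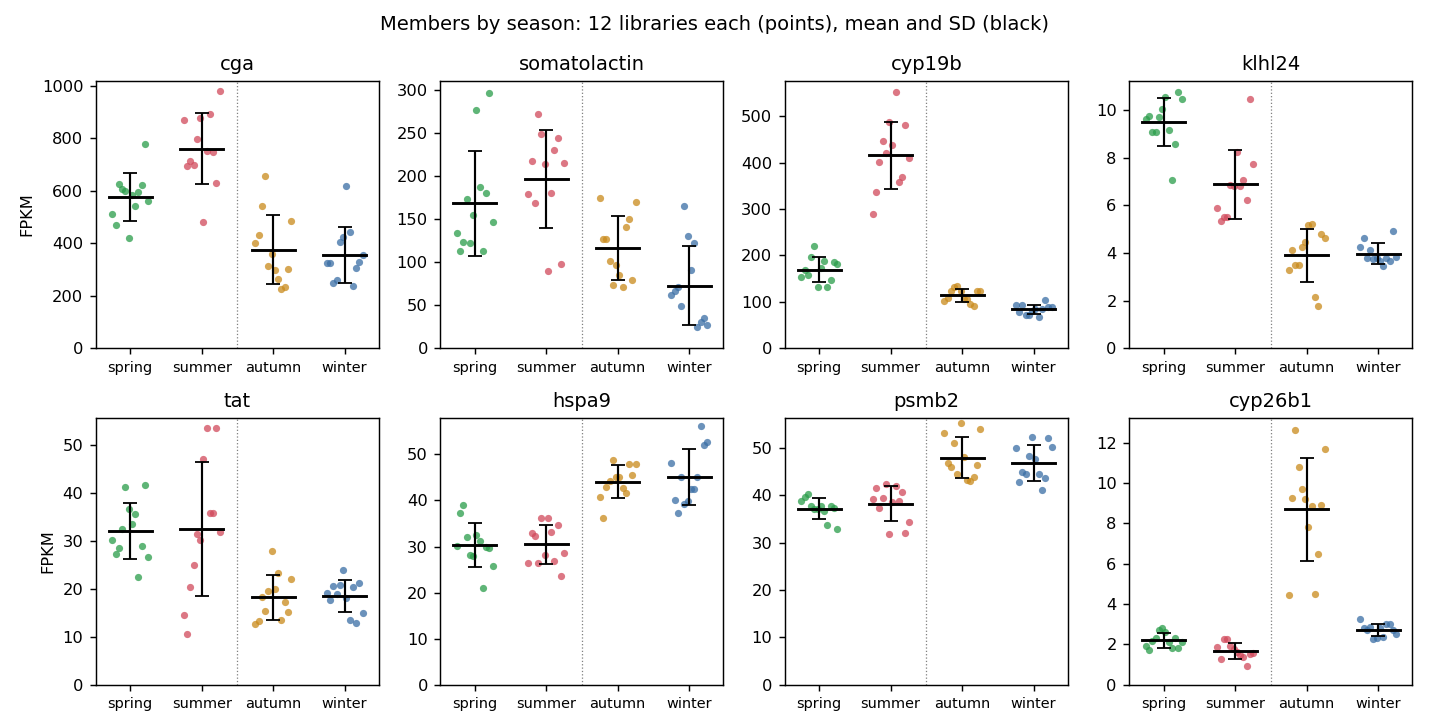
FPKM (vertical axis, from 0) of 8 members in each library by season (horizontal axis), with the mean and SD of 12 libraries in black and a dotted line between the 2 groups compared. The gene cga lies higher on the left of the line in most libraries, cyp19b peaks in summer, cyp26b1 in autumn, and hspa9 and psmb2 are level within each group.

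Clock genes held few members, as did the tested genes as a whole (5.52%). Period and cryptochrome proteins repress the daily clock, and CLOCK and ARNTL drive it. Of 20 repressors tested, 6 (30%) were called higher and 10 (50%) lower, and 1 (5%) was a member (2 under either scaling). Of 11 activators 1 (9.09%) was higher and 5 (45.5%) lower. Of 8 output factors of the PAR bZIP and NFIL3 type 0 were higher and 6 (75%) lower. Neither list held a member. Over all tested genes 23.8% were called higher and 31.0% lower. Under median-ratio scaling 2 activators and 1 output factor were higher, and under quantile normalization 1 and 2. The member was per3 (LOC101159817), with medians of 29.8, 30.1, 28.9 and 26.1 FPKM and a difference of 0.21 ± 0.03 (SE). Its summer and autumn libraries spread widely over the day, from 15.5 to 62.3 and 13.7 to 53.4 FPKM, and overlapped with all others. A wide daily range lowers a mean of log2 values, which touches each of these genes. For a copy of per2 (LOC101161338) spring exceeded autumn by 0.96 while summer minus winter was -1.66. A separate gene with the symbol per2 was also tested and was not a member. A thyrotroph embryonic factor gene (LOC101164258) and an nfil3 gene (LOC101161892) were called lower, at -0.38 ± 0.03 (SE) and -0.39 ± 0.04 (SE), and for both the difference between spring and autumn was not called (adjusted p = 0.427 and 0.216).

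In 2 genes, both higher, no library of spring and summer overlapped with any of autumn and winter (0.0120% of tested genes, and 0.00% in the lower direction). These are klhl24 and tcp11l2. Transcripts of klhl24, an adaptor of a cullin ubiquitin ligase, measured 7.08 to 10.8 FPKM in spring (median 9.68), 5.34 to 10.5 in summer (median 6.82), 1.76 to 5.24 in autumn (median 4.18) and 3.45 to 4.94 in winter (median 3.79). Spring was highest and the gap between the groups was narrow, from 5.24 FPKM to 5.34 FPKM. The difference was 0.89 ± 0.03 (SE). Those of tcp11l2 measured 22 to 27.6 FPKM in spring (median 25.6), 21.2 to 27.9 in summer (median 24.9), 11.8 to 18.9 in autumn (median 16.5) and 16 to 19.8 in winter (median 19). The spring and summer libraries lay within 21.2 to 27.9 FPKM, above every autumn and winter library, and the difference was 0.52 ± 0.02 (SE).

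The other members with the largest differences in the higher direction, named after their values were seen, include several enzymes and ubiquitin or lysosome proteins. Tyrosine aminotransferase, tat, the first enzyme of tyrosine breakdown, measured 22.6 to 41.7 FPKM in spring (median 31.4), 10.6 to 53.6 in summer (median 31.7), 12.6 to 27.9 in autumn (median 17.8) and 12.8 to 24 in winter (median 19). The medians of spring and summer were close to each other, as were those of autumn and winter, although summer spread over the whole range. The difference was 0.73 ± 0.07 (SE). Together with cga, klhl24 and an unnamed transcript, tat was at least 1.5-fold higher in each of the 4 pairs, as 4 members were. An arrestin-domain gene, arrdc2, measured 8.77 to 38.1 FPKM in spring (median 25.5), 6.99 to 16 in summer (median 11.6), 5.39 to 14.5 in autumn (median 7.86) and 4.26 to 11.8 in winter (median 8.21), with a peak in spring and a difference of 0.92 ± 0.08 (SE). The ubiquitin ligase subunit fbxo32, a marker of muscle wasting in mammals, was also highest in spring, with medians of 2.55, 1.28, 0.82 and 0.78 FPKM and a difference of 0.61 ± 0.05 (SE), which the added 1 FPKM makes smaller at this level. The lysosomal membrane protein gene laptm4b had medians of 15.6, 12.3, 9.07 and 9.68 FPKM, and the spring libraries overlapped with none of autumn or winter.

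Spring and summer had close medians in nktr, YAP1 and aldh2, which like the other genes here were named after their values were seen. The cyclophilin-type protein gene nktr measured 54.2 to 68.9 FPKM in spring (median 58.9), 51.8 to 69.5 in summer (median 59.9), 36.8 to 53.2 in autumn (median 40.8) and 40.7 to 50.2 in winter (median 47.4). The summer range met that of autumn, spring overlapped with neither autumn nor winter, and the difference was 0.43 ± 0.03 (SE). The coactivator YAP1 (LOC101168066), which carries the Hippo signal, had medians of 2.48, 2.65, 1.41 and 1.74 FPKM and a difference of 0.45 ± 0.04 (SE). A separate gene with the symbol yap1 was not a member, at -0.02 (adjusted p = 0.764). Mitochondrial aldehyde dehydrogenase, aldh2, had medians of 36, 33.8, 28.2 and 28.2 FPKM and a difference of 0.35 ± 0.04 (SE). Cholesterol 7-alpha-hydroxylase (LOC101160349), the enzyme that starts bile acid synthesis in liver, was present at a low level with medians of 2.58, 2.65, 0.96 and 1.61 FPKM and a difference of 0.61 ± 0.06 (SE). A large neutral amino acid transporter (LOC101173175) had medians of 4.89, 5.0, 3.67 and 2.58 FPKM, and its difference was 0.60 ± 0.05 (SE).

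Autophagy genes were called higher more often than lower. The process wraps parts of the cell in a membrane and delivers them to lysosomes. The lists of autophagy, insulin and mTOR signalling, the CCT chaperonin, tubulins, mitochondrial import, mitochondrial ribosomal proteins, translation factors, tRNA ligases, nuclear pore proteins, snRNP proteins and glycolysis were put together after the members' values were seen, and all other lists with earlier results of these data known. Of 53 autophagy genes tested, 26 (49.1%) were called higher and 10 (18.9%) lower, against 23.8% and 31.0% of all tested genes. The list median was 0.07 (all tested genes -0.01), and 8 (15.1%) were members, all higher. Medaka carry several genes of this and other families in more than 1 copy, and a name with an ID stands for that copy alone. The members were a copy of the kinase ULK1 that starts the process (LOC101167046, 0.34 ± 0.04 (SE)), the lipid proteins atg9a (0.17 ± 0.02 (SE)) and atg2a (0.23 ± 0.02 (SE)), the phosphoinositide reader wipi1 (0.18 ± 0.02 (SE)), the receptors tex264 (0.28 ± 0.03 (SE)) and bnip3 (0.23 ± 0.03 (SE)), tp53inp1 (0.39 ± 0.03 (SE)) and ei24 (0.35 ± 0.02 (SE)). Their values overlapped between the groups. For tp53inp1, the member with the largest difference here, libraries measured 7.96 to 11.1 FPKM in spring (median 8.94), 8.89 to 11.3 in summer (median 10.9), 5.69 to 9.66 in autumn (median 6.8) and 6.65 to 8.64 in winter (median 7.43). The gene with the symbol ulk1 was not a member: it was called higher over the groups, by 0.23, but summer minus winter was -0.15. The call for bnip3 held in 36 of the 48 fits that left out 1 library, that for ei24 was lost without the 3 spring libraries, and that for LOC101167046 under quantile normalization.

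Genes of insulin and mTOR signalling, which couples nutrients to growth, split both ways. Of 50 tested, 23 (46%) were called higher and 14 (28%) lower, against 23.8% and 31.0% of all tested genes. In the list 7 members were higher (14%) and 4 lower (8%), against 1.81% and 3.71% of all tested genes. These were 6 and 2 without the 3 spring libraries, and 1 was lower under either scaling. Higher members were deptor, an inhibitor of mTOR (30.5, 27.5, 23.9 and 24.6 FPKM, 0.26 ± 0.02 (SE)), eif4ebp2, which holds back translation initiation (58.7, 56.2, 47.2 and 48.2 FPKM, 0.30 ± 0.03 (SE)), and fnip1, a folliculin partner (0.20 ± 0.03 (SE)). Also higher were the lysosomal anchor lamtor1 (0.24 ± 0.02 (SE)), the mTOR complex 2 subunit rictor (0.14 ± 0.02 (SE)), an insulin receptor (LOC101168764, 0.25 ± 0.02 (SE)) and an insulin-like growth factor 1 receptor (LOC101173298, 0.18 ± 0.02 (SE)). Lower members were a copy of the mTOR activator Rheb (LOC101160603, -0.18 ± 0.02 (SE)), its relative Ras homolog, mTORC1 binding (LOC101161855, -0.25 ± 0.04 (SE)), the phosphoinositide 3-kinase subunit pik3r1 (-0.19 ± 0.03 (SE)) and a copy of FOXO6 (LOC101155614, -0.24 ± 0.03 (SE)). The insulin-like growth factor receptor call held in 35 of the 48 fits that left out 1 library and that of pik3r1 in 41. Under either scaling fnip1, the growth factor receptor, LOC101160603, LOC101161855 and pik3r1 were not members. Without the 3 spring libraries the insulin receptor, LOC101161855 and pik3r1 were not.

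The lower members held many parts of the machinery that makes, folds and destroys protein. For comparison with these lists and those of the next paragraphs, 31.0% of all tested genes were called lower, 23.8% higher, and 3.71% were lower members. The proteasome, which degrades ubiquitin-tagged protein, held the most members of the lists: of 38 subunit genes tested, 33 were called lower and 1 higher, and 19 were members, all lower (16 under median-ratio scaling). The list median was -0.21. The catalytic-ring gene psmb2 measured 32.8 to 40.1 FPKM in spring (median 37.4), 31.8 to 42.4 in summer (median 39), 43 to 55.1 in autumn (median 46.5) and 41.2 to 52.2 in winter (median 46.2). Spring and summer were alike, autumn and winter were alike, overlap was slight, and the difference was -0.32 ± 0.03 (SE). The ring gene psmb3 had medians of 24, 23.3, 29.6 and 34.7 FPKM and the lid gene psmd3 of 19.5, 16.7, 23.6 and 24.7 FPKM, with differences of -0.43 ± 0.05 (SE) and -0.46 ± 0.06 (SE).

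Among 24 genes of the response to cold and heat, 16 were called lower and 2 higher, and 5 were members, all lower (7 lower and 1 higher under median-ratio scaling). These were the mitochondrial chaperones hspa9 and hspd1, the co-chaperone dnaja2 (-0.25 ± 0.03 (SE)), hspa14 (-0.40 ± 0.06 (SE)) and an HSPA4-like gene (LOC101166977, -0.47 ± 0.04 (SE)). Libraries of hspa9 measured 20.9 to 39 FPKM in spring (median 30.1), 23.7 to 36.3 in summer (median 30.4), 36.3 to 48.8 in autumn (median 44.6) and 37.2 to 56.2 in winter (median 43.8). Summer minus spring was 0.01 and winter minus autumn 0.02, the ranges met at their ends, and the difference between the groups was -0.54 ± 0.05 (SE). Its partner hspd1 measured 9.31 to 18.2 FPKM in spring (median 14.6), 11.1 to 19.9 in summer (median 15.2), 15.4 to 24.4 in autumn (median 21.1) and 17.1 to 30.3 in winter (median 21.2), with overlap and a difference of -0.53 ± 0.05 (SE).

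In the endoplasmic reticulum, 19 of 27 chaperone genes were called lower and 2 higher. The members were hspa5, the main chaperone of that compartment, xbp1, a transcription factor of its stress response, and both calnexin genes. Libraries of hspa5 measured 65.2 to 86.7 FPKM in spring (median 71.8), 81.2 to 118 in summer (median 90.4), 80.6 to 132 in autumn (median 99.4) and 109 to 140.4 in winter (median 121). Spring did not overlap with winter, but spring overlapped with autumn, and summer with both autumn and winter. The difference was -0.43 ± 0.02 (SE). For xbp1 the medians were 49, 59.7, 66.3 and 66.7 FPKM and the difference was -0.33 ± 0.03 (SE). The calnexin differences were -0.27 ± 0.04 (SE) for canx, which remained a member in 36 of the 48 fits without 1 library but under neither scaling, and -0.34 ± 0.03 (SE) for LOC101159642. All 8 subunits of the cytosolic CCT chaperonin, which folds actin and tubulin, were called lower, and 4 were members. Among them, cct5 measured 48.3 to 69.9 FPKM in spring (median 59.9), 54.6 to 70.4 in summer (median 63.4), 75.1 to 91.2 in autumn (median 82.9) and 66.9 to 84.8 in winter (median 71.9), with autumn above all spring and summer libraries and a difference of -0.34 ± 0.02 (SE).

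Tubulins, the clients of that chaperonin and the building blocks of microtubules, had the largest list median, -0.56. Of 17 tested, 15 were called lower, 0 higher, and 8 were members. Their copies are alike in sequence, so reads may be shared among them and their separate values are less certain. Tubulin beta-1 (LOC101166392) measured 133 to 197 FPKM in spring (median 167), 216 to 307 in summer (median 258), 294 to 462 in autumn (median 384) and 302 to 381 in winter (median 343). Spring lay below all other seasons and summer overlapped slightly with autumn and winter, with a difference of -0.80 ± 0.03 (SE). A tubulin alpha gene (LOC101171518) measured 241 to 418 FPKM in spring (median 312), 155 to 308 in summer (median 205), 287 to 471 in autumn (median 411) and 529 to 772 in winter (median 667). Winter stood above every library of the other seasons, while autumn overlapped with spring and summer, and the difference was -0.98 ± 0.04 (SE). A further alpha gene (LOC101168255) had medians of 46.6, 39.9, 60.4 and 85.9 FPKM and a difference of -0.75 ± 0.04 (SE). The tubulin members thus differed in which season was highest: beta-1 had its highest median in autumn and both alpha genes in winter.

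Mitochondrial genes made up further lower members. Among all tested genes 31.0% were called lower, 23.8% higher, and 3.71% were lower members. Of 85 subunits of oxidative phosphorylation, 67 were called lower and 0 higher, and 7 were members (list median -0.18). Under quantile normalization 54 were lower and 4 were members. The complex I subunit ndufb2 had medians of 51.1, 48.8, 59.2 and 70.2 FPKM and a difference of -0.38 ± 0.04 (SE). Of 46 import and chaperone genes 34 were called lower and 2 higher, and 12 members were lower, among them timm23, timm50 and tomm40 of the import channels. The 12 include hspa9 and hspd1, which are also counted among the cold and heat genes above. Under either scaling or without the 3 spring libraries timm50 was not a member. The 1 higher member was a copy of AFG3-like protein 1 (LOC101159734, 0.30 ± 0.05 (SE)), a protease of the inner membrane. Of 75 mitochondrial ribosomal proteins, 45 were lower and 4 higher, with 9 members (6 without the 3 spring libraries). A pair of assembly genes of cytochrome c oxidase outside these lists was named after their values were seen. The copper chaperone SCO2 (LOC101173672), needed for that enzyme, measured 1.6 to 4.59 FPKM in spring (median 3.29), 2.28 to 4.41 in summer (median 3.48), 4.11 to 7.13 in autumn (median 5.08) and 4.0 to 6.91 in winter (median 5.24). The ranges met at their ends and the difference was -0.59 ± 0.06 (SE). The other, COX11 (LOC101159951), is listed at 0 in some libraries of every season, with medians of 0.38, 0.125, 1.53 and 2.46 FPKM. No fold is given for it, and it remained a member in 40 of the 48 fits without 1 library, though not without the 3 spring libraries.

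Calls in genes of cytosolic translation depended on the scaling. Of 82 ribosomal protein genes 51 were called lower and 1 higher, and 6 were members. Under quantile normalization 25 were lower, 10 were higher and 0 were members, and the list median moved from -0.12 to -0.03. Under median-ratio scaling 47 were lower and 3 were members, and without the 3 spring libraries 41 were lower and 1 was a member. Of the 6, rpl15 (-0.37 ± 0.09 (SE)) remained a member in 17 and rps23 (-0.35 ± 0.08 (SE)) in 35 of the 48 fits without 1 library. Of 59 translation factors, 37 were called lower, 6 higher and 8 were members. Members numbered 5 under median-ratio scaling and 4 under quantile normalization, where 29 factors were lower and 10 higher. A copy of the cap-binding factor eIF4E (LOC101166761) measured 9.88 to 27.3 FPKM in spring (median 14.2), 16.5 to 23.8 in summer (median 20.4), 19.3 to 48.7 in autumn (median 30.9) and 22.3 to 31.6 in winter (median 26.5). Spring was lowest, summer overlapped with autumn and winter, and the difference was -0.70 ± 0.04 (SE). An eIF3 subunit gene (LOC101174301) had medians of 37.9, 40.1, 54.5 and 48.9 FPKM and a difference of -0.40 ± 0.03 (SE). Of 38 tRNA ligases 27 (71.1%) were lower and 3 (7.89%) higher. The 2 members were both lower (3 lower and 1 higher under median-ratio scaling). They are 5.26% of the list, beside 3.71% lower members among all tested genes.

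Nuclear genes added to this group. Of 27 nuclear pore proteins 23 were called lower, 1 higher and 8 were members (5 without the 3 spring libraries), with nup133 at medians of 2.29, 2.38, 2.92 and 3.17 FPKM and a difference of -0.34 ± 0.05 (SE). Of 37 snRNP and Sm proteins, the core of the spliceosome, 25 were called lower, 0 higher and 5 were members. The Sm protein gene snrpg measured 18.2 to 27.2 FPKM in spring (median 24.6), 19.5 to 30.5 in summer (median 25.3), 26 to 37.5 in autumn (median 34.6) and 27.4 to 41.4 in winter (median 36.6), with slight overlap and a difference of -0.46 ± 0.04 (SE). Of 41 SR and hnRNP splicing factors, which steer splice site choice, 22 (53.7%) were called lower and 10 (24.4%) higher, but 17 and 16 under quantile normalization. The list held 2 members, both lower (4.88%, near the 3.71% of all tested genes), and under quantile normalization 2 lower and 3 higher.

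**Figure D4:**
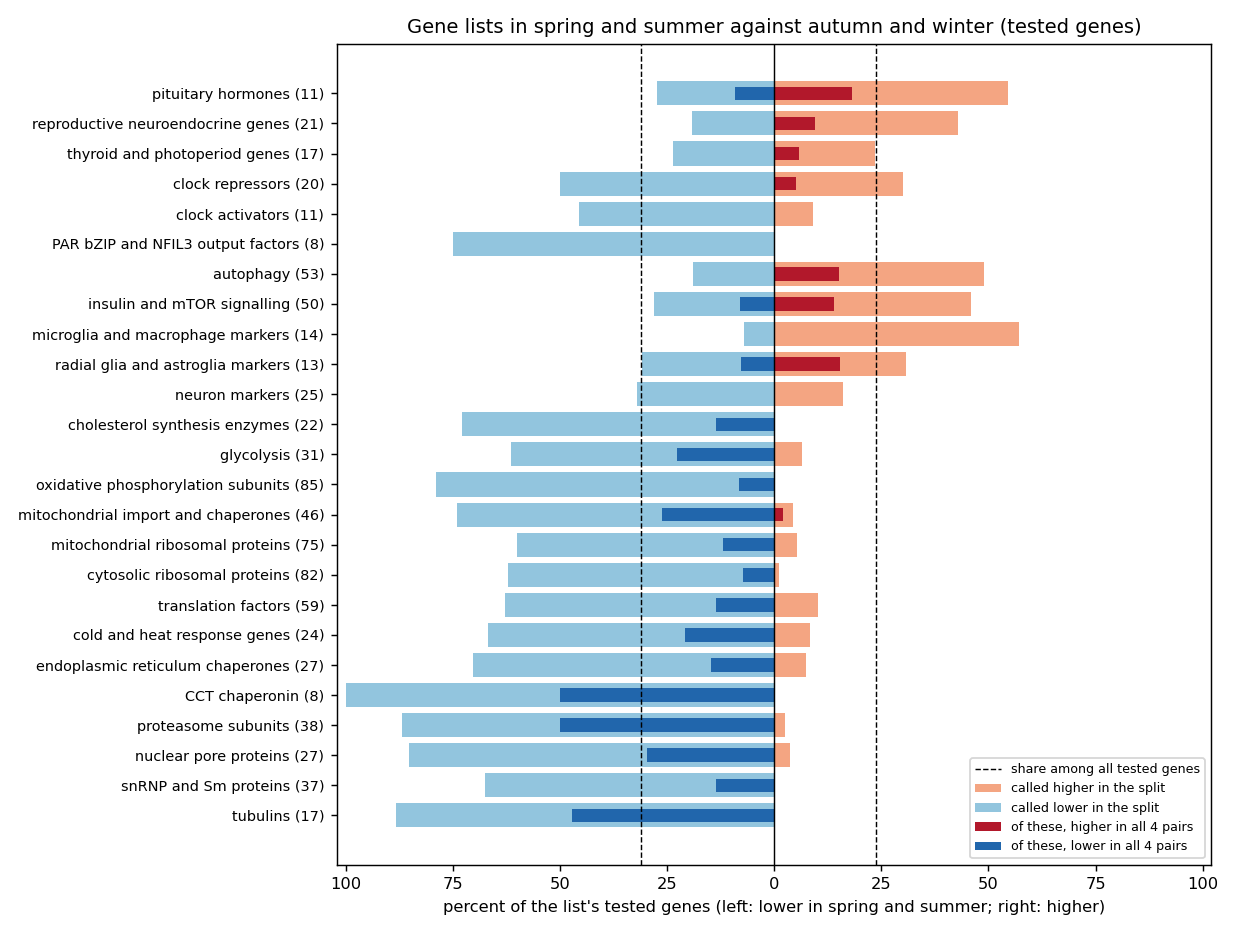
Percent of each list's tested genes (number in brackets) called lower (left) or higher (right) in spring and summer, with members as dark bars and the shares among all tested genes, 31.0% lower and 23.8% higher, as dashed lines. All 8 CCT chaperonin genes and 33 of 38 proteasome genes lie to the left, and 26 of 53 autophagy genes to the right.

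Lists of sterol synthesis and glycolysis enzymes held further lower members. Over all tested genes 31.0% were called lower, 23.8% higher, and 3.71% were lower members. Of 22 cholesterol synthesis enzymes 16 were called lower and 0 higher, and 3 were members. The lanosterol demethylase CYP51 (LOC101169834) measured 2.93 to 7.63 FPKM in spring (median 6.42), 4.7 to 9.32 in summer (median 7.57), 7.96 to 13.9 in autumn (median 11.3) and 8.42 to 15.1 in winter (median 11.9). Spring did not overlap with autumn or winter, and the difference was -0.72 ± 0.06 (SE). A copy of the rate-limiting enzyme HMG-CoA reductase (LOC101166888) and the isomerase idi1 differed by -0.32 ± 0.06 (SE) and -0.22 ± 0.04 (SE). The reductase was not a member under either scaling or without the 3 spring libraries, and idi1 held in 39 of the 48 fits without 1 library. Of 31 glycolysis genes 19 were lower, 2 higher and 7 were members (5 under median-ratio scaling, 4 under quantile normalization). Among these, lactate dehydrogenase B (LOC101165776) measured 88.8 to 199 FPKM in spring (median 165), 122 to 245 in summer (median 198), 176 to 288 in autumn (median 235) and 180.3 to 296 in winter (median 246), with overlap and a difference of -0.51 ± 0.08 (SE). The regulatory kinase pfkfb3 had medians of 10.6, 7.29, 13.8 and 14 FPKM and a difference of -0.52 ± 0.03 (SE), and pgk1 had medians of 70.6, 81.5, 98 and 106 FPKM and a difference of -0.42 ± 0.05 (SE). Of 18 fatty acid genes 3 (16.7%) were called higher and 7 (38.9%) lower, against 23.8% and 31.0% of all tested genes. The member that held under both scalings and without the 3 spring libraries was acacb, an acetyl-CoA carboxylase, higher by 0.19 ± 0.02 (SE). A copy of fatty acid desaturase 2 (LOC101156571), at 0.22 ± 0.05 (SE), was not a member under either scaling or without the 3 spring libraries. Fatty acid synthase fasn, a lower member at -0.39 ± 0.06 (SE), held in 23 of the 48 fits without 1 library and not under median-ratio scaling or without the 3 spring libraries.

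Further lower members with large differences, named after their values were seen, belong to several pathways. The creatine synthesis enzyme gatm measured 9.96 to 13.6 FPKM in spring (median 11.4), 4.15 to 18.4 in summer (median 9.03), 7.18 to 33.9 in autumn (median 22.7) and 13.8 to 20.3 in winter (median 16.4), widest in summer and autumn, with a difference of -0.69 ± 0.04 (SE). The transporter mfsd2a, which in mice carries omega-3 lipids into the brain, had medians of 16.3, 15.3, 25.7 and 23.3 FPKM and a difference of -0.59 ± 0.04 (SE). Glutaredoxin glrx, which repairs oxidized thiols, had medians of 10.1, 10.2, 15.2 and 16.9 FPKM and a difference of -0.58 ± 0.07 (SE). The triglyceride enzyme dgat2 had medians of 1.44, 1.02, 3.26 and 2.7 FPKM and a difference of -0.74 ± 0.11 (SE) (not a member without the 3 spring libraries), and the vault protein mvp medians of 8.84, 8.49, 10.9 and 12.6 FPKM and a difference of -0.50 ± 0.07 (SE). A copy of the steroid-responsive factor KLF9 (LOC101165098) had medians of 3.62, 4.05, 5.38 and 4.88 FPKM and a difference of -0.35 ± 0.04 (SE). It was the only member (7.69%) of 13 glucocorticoid response genes tested. Of these 5 (38.5%) were called higher (3 without the 3 spring libraries) and 6 (46.2%) lower, against 23.8% and 31.0% of all tested genes. The gene with the symbol klf9 was not a member, with spring minus autumn at 0.72 and summer minus winter at -1.15.

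Markers of cell types were measured alongside. The shares called among all tested genes were 23.8% higher and 31.0% lower. Of 13 radial glia and astroglia markers 4 were called higher and 4 lower (30.8% each). The members were cyp19b, a copy of the glutamate transporter EAAT1 (LOC101170347), higher by 0.59 ± 0.04 (SE), and vimentin, vim, at -0.21 ± 0.04 (SE). Over the list, summed FPKM ran from 1328 to 1650 in spring, 1877 to 2671 in summer, 1688 to 2159 in autumn and 1332 to 1663 in winter, so spring resembled winter and summer autumn. Of 14 microglia and macrophage markers 8 (57.1%) were called higher, 1 (7.14%) lower and 0 were members. Their sums were 214 to 316 FPKM in spring and 156 to 258 in the other seasons. Of 25 neuron markers 4 (16%) were higher and 8 (32%) lower (6 and 5 under median-ratio scaling, 8 and 5 under quantile normalization). Of 21 myelin markers 5 (23.8%) were higher and 6 (28.6%) lower (7 and 4 under median-ratio scaling, 6 and 3 under quantile normalization). Of 21 pituitary cell markers 5 (23.8%) were higher and 6 (28.6%) lower, 6 and 5 under median-ratio scaling. Their sums were 1492 to 1689 FPKM in spring, 1400 to 1573 in summer, 1387 to 1650 in autumn and 1477 to 1780 in winter. The median sums of the pituitary markers were 1602, 1482, 1460 and 1644 FPKM in spring, summer, autumn and winter, highest in winter and lowest in autumn. No marker of the 8 cell type lists was at 0 in all 48 libraries, and neuronal and pituitary markers were present as the tissue label says. The part of cell composition in the other results was not tested.

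Other lists held a single member or none. Over all tested genes 5.52% were members, 23.8% were called higher and 31.0% lower. Of 24 immediate early genes, which respond within minutes to neural activity, 11 (45.8%) were called higher, 2 (8.33%) lower and 0 were members. Of 50 antioxidant genes 6 (12%) were higher (10 under either scaling), 20 (40%) lower and 0 members. Of 32 dopamine and serotonin genes 4 (12.5%) were higher, 8 (25%) lower and 0 members. Neurohypophysial hormones and releasing peptides gave 5 (16.7%) higher, 8 (26.7%) lower and 0 members (1 under either scaling) of 30 genes. Single members were the ribonucleotide reductase subunit LOC101164326 of 16 replication genes (0.27 ± 0.03 (SE)), a class I histocompatibility gene (LOC101154961) of 30 interferon and antigen presentation genes (0.39 ± 0.06 (SE)) and a copy of PMP22 (LOC101167620) of the myelin list (0.36 ± 0.09 (SE)). The PMP22 copy was not a member under either scaling and held in 33 of the 48 fits without 1 library, and the gene with the symbol pmp22 was not a member, with spring minus autumn at -0.36 and summer minus winter at 0.61. In the lower direction they were histone H2AX (LOC101160258, -0.30 ± 0.05 (SE)) of 19 histone genes and the opsin tmtops2 of 13 opsins. A single member is 6.25% of the replication list, 3.33% of the interferon list and 4.76% of the myelin list. It is 5.26% of the histone list and 7.69% of the opsin list, so these shares lie on both sides of 5.52%. The light-sensitive opsin tmtops2 measured 1.03 to 2.44 FPKM in spring (median 1.53), 0.64 to 2.09 in summer (median 1.43), 1.38 to 2.93 in autumn (median 1.85) and 1.46 to 2.71 in winter (median 2.0). All seasons overlapped, the difference was -0.27 ± 0.06 (SE), and it was not a member under either scaling or without the 3 spring libraries.

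Within the groups, many members still moved. Summer and spring differed in 335 members (36.5%, against 73.8% of all tested genes), 156 higher and 179 lower in summer (all tested genes 43.9% and 29.9%). Winter and autumn differed in 301 members (32.8%, against 71.7%), 158 higher and 143 lower in winter (all tested genes 29.3% and 42.4%). In 416 members, 122 of them higher and 294 lower, neither difference was called. The rule favours genes that vary little within a group, so these shares are a description.

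The daily curve was tested as a further measure, with a 24 h cosine fitted in each season. The mean curve of spring and summer differed from that of autumn and winter in 369 of 16622 genes (2.22%) and in 49 members (5.34%), 20 of them higher and 29 lower members. The count for all genes depended on single libraries. It fell to 243 without spring 14 h replicate 1, 194 without summer 10 h replicate 1, 231 without summer 22 h replicate 1, 238 without autumn 18 h replicate 2, 208 and 223 without autumn 22 h replicate 1 or 2, 235 without winter 10 h replicate 1 and 231 without winter 22 h replicate 2. It rose to 603 without autumn 10 h replicate 2. The amplitude of the mean curve was larger in spring and summer in 16 of the 20 higher members and in 14 of the 29 lower members. Over all called genes it was larger there in 184 of 369. A mean curve flattens where its 2 seasons peak at different hours, so these counts do not compare amplitudes within single seasons. A rhythm was called in 20.3% of the higher and 9.72% of the lower members in summer (all tested genes 13.6%), and in 23.6% and 20.4% in autumn (16.1%). In spring the shares were 3.32% and 3.57% (2.59%), and in winter 1.66% and 1.46% (1.53%).

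The 5 members with the smallest p in this test were ndrg4, aatf, an acyl-CoA thioesterase (LOC101172604), ddx3x and chsy1. In ndrg4 the spring and summer mean rose from 224 FPKM at clock hour 10 to 302 FPKM at clock hour 22, while the autumn and winter mean stayed between 232 and 257 FPKM (adjusted p = 6.15e-04). In means of 2 libraries, summer ran from 211 FPKM at clock hour 10 to 333 FPKM at clock hour 22. Autumn was likewise lowest at clock hour 10, at 212 FPKM, and highest at clock hour 2, at 281 FPKM, while winter was highest at clock hour 10, at 262 FPKM, and lowest at clock hour 22, at 218 FPKM. The narrow range of the autumn and winter mean thus joins curves that ran opposite ways. The groups differed in level by 0.11 ± 0.02 (SE), in the direction of the call at 4 of 6 hours. In ddx3x, an RNA helicase, autumn and winter libraries reached a mean of 171 FPKM at clock hour 22, when those of spring and summer were at 95.6 FPKM. At clock hour 14 the means were 109 and 113 FPKM (adjusted p = 0.00712 for the curve). The group means of ddx3x stood in the direction of the call at 5 of 6 hours. Under median-ratio scaling ndrg4 was not a member, and under quantile normalization ddx3x was not.

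In the other 3 the groups were also far apart at clock hour 22. The gene aatf, named for a role against apoptosis, was at 5.26 FPKM in autumn and winter against 2.87 FPKM in spring and summer at clock hour 22, and at 4.07 against 3.46 FPKM at clock hour 10 (adjusted p = 0.00383). The thioesterase LOC101172604 was at 9.61 against 5.56 FPKM at clock hour 22 and at 8.26 against 7.30 FPKM at clock hour 10 (adjusted p = 0.00659). For chsy1, an enzyme that builds chondroitin chains, the values were 5.10 against 2.98 FPKM at clock hour 22 and 3.87 against 3.60 FPKM at clock hour 10 (adjusted p = 0.00714). At each of these hours a group mean holds 4 libraries. These 3 genes and ddx3x are lower members. At clock hour 22 the median deviation of all lower members ran from -0.268 to -0.134 in spring and summer libraries. It ran from 0.165 to 0.261 in those of autumn and winter. At clock hour 10 the ranges were -0.255 to -0.058 and 0.105 to 0.151. A wide gap at clock hour 22 is thus not particular to these genes. Under either scaling or without the 3 spring libraries chsy1 was not a member.

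**Figure D5:**
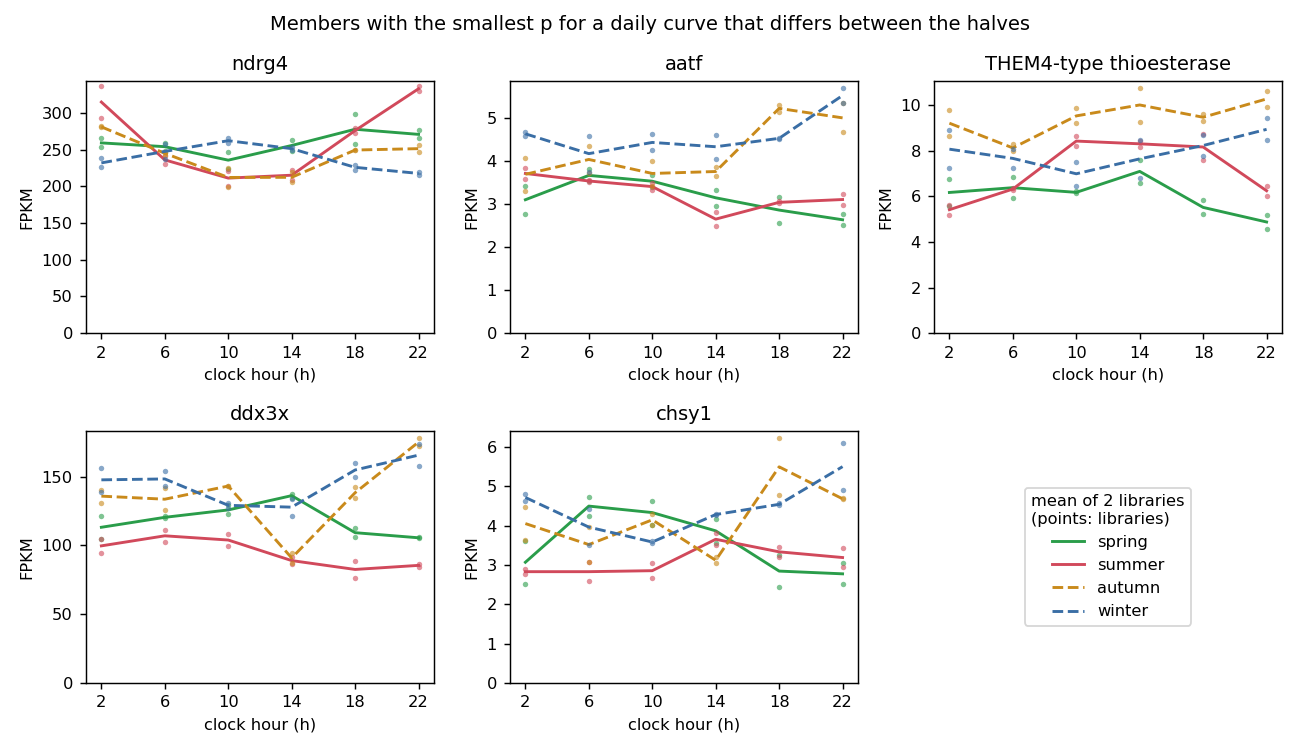
FPKM (vertical axis, from 0) against clock hour (horizontal axis) for the 5 members with the smallest p for a daily curve that differs between the groups; points are libraries and lines the means of 2 per season, solid for spring and summer, dashed for autumn and winter. In ndrg4 summer swings from 211 to 333 FPKM, and in ddx3x and aatf the dashed lines lie well above the solid ones at clock hour 22.

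At the edge of the rule, the glutamate receptor 3 gene (LOC101158221) entered with a largest adjusted p of 0.0499 over its 4 pairs. The dehydrogenase gene LOC101165643 stayed out with 0.0501. Of the 918 members, 646 (217 higher, 429 lower) were members in each of the 48 fits that left out 1 library. A total of 463 (178 higher, 285 lower) also passed with a pseudocount of 0.1, under both scalings and without 3 spring libraries that stand apart. A gene or product name was lacking in 5 members, and 15 had a product listed as uncharacterized.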

How the data were processed

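RNA was measured in 48 libraries of medaka ventral telencephalon, hypothalamus and pituitary, 12 per season. Per the labels' protocols, libraries were poly-A selected, strand-specific and paired-end. Expression came as FPKM (fragment counts divided by gene length and by the library total) for 26167 genes, in a table the authors deposited. Per the submitters' processing notes, the tools were Bowtie2 2.2.5 and RSEM 1.2.12. Genome build and annotation: not given in the sources used here. FPKM sums per library lay between 314605 and 359311. Read counts were not used here, so depth is unknown and no counting interval is given. Names came from a RefSeq gene table (ASM223467v1), which covered 25080 IDs. Another 945 IDs are unannotated transcripts.

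Values were taken as log2(FPKM + 1), for which folds of low genes are understated. Those reaching 1 FPKM on average were tested with limma 3.58.1 in R 4.3.3 (intensity trend, two-sided, Benjamini-Hochberg over 16622 genes, adjusted p below 0.05). The model had 24 season-by-hour groups and 24 residual degrees of freedom, and the daily curve 36. The 4 season pairs share libraries, so their calls are not independent. The script was tested on simulated data. Members and gene lists were chosen with earlier results of these data known. The text names members without overlap between the 2 groups, list genes that are members, hormone and axis genes, the 5 members with the smallest p of the daily curve, and others said to be chosen after their values were seen. Alternatives were a pseudocount of 0.1, other filters and scalings, season means as units, a replicate block, and leaving out each library, clock hour, season or the 3 spring libraries. Promoters and proteins were not analysed here.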

Additional observations from a re-analysis of the deposited data

Results flagged for a closer look

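The daily curve of spring and summer differed from that of autumn and winter in 369 genes (limma, adjusted p below 0.05, a test of the difference itself). The genes looked up here were 189 named genes, which include the members in the lists. Other genes of the lists were not looked up, so their absence here says nothing of their curves. Of the 189, ndrg4 had an adjusted p of 0.000615, aatf 0.00383, LOC101172604 (a thioesterase) 0.00659, ddx3x 0.00712 and chsy1 0.00714. Tubulin beta-1 (LOC101166392) had 0.0114, rictor 0.0155, pfkfb3 0.0167, dnaja2 0.0197, the splicing factor SRSF2 (LOC101163660) 0.0324 and eIF4E (LOC101166761) 0.0333. The insulin-like growth factor 1 receptor (LOC101173298) had 0.0387, dgat2 0.0398, dio3 0.0415, a thyrotroph embryonic factor (LOC101164258) 0.0422, KLF9 (LOC101165098) 0.0449, the insulin receptor (LOC101168764) 0.0459 and a tubulin alpha gene (LOC101168255) 0.0473. Of the genes listed here, dio3 and LOC101164258 are not members.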

How the results depend on the processing

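Without 1 library at a time, the members numbered 274 to 323 higher and 555 to 690 lower, genes called over the 2 groups 3811 to 4005 higher and 4972 to 5308 lower, members called between summer and spring 285 to 363, between winter and autumn 260 to 346, and daily curve differences 194 to 603. The lower members numbered 354 without clock hour 22, and the cause was not tested. Genes called higher over the groups were 2635 with a mean FPKM of at least 5, which tests fewer genes, and 6068 without spring. With season means as units limma called 0 higher and 0 lower. An unadjusted p below 0.05 was present in 135 genes, a smaller share than the threshold gives where no gene differs. At 1.5-fold in all 4 pairs 4 higher and 1 lower members were left, at 2-fold 0 and 0, and with no overlap of libraries 2 and 0. The daily curve count was 213 without the 3 spring libraries and 1137 as an interaction of group with clock hour. The cause of these changes was not tested.

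The title number as a replicate block gave 3344 higher and 4516 lower genes over the groups and 202 higher and 464 lower members. The labels do not say whether the number pairs libraries, and it was treated as not pairing them. Of 72 same-number pairs, 12 had deviations correlated above 0.1, and the range was -0.163 to 0.293. The deviations are from means of 2 libraries and mirror each other, so each correlation is counted for both replicates.

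A member cannot turn direction when a season is left out, because the rule requires the same direction in every pair across the divide. The lack of turns among members is therefore not a test of them. Turns were counted only for named genes called over the groups. Among such genes outside the members, 9 values turned direction when a season was left out. Without summer these were lhb -0.87, gnrh1 -0.14, npb_105354556 -0.029, LOC101161338 0.38 and per1 0.16. Without winter they were LOC101161338 0.22, per1 0.018, LOC101171658 -0.28 and LOC101172582 -0.19. Of 12636 values of the 189 named genes under alternatives, 12423 were counted as unchanged. For called genes this means the same direction and side of the threshold. A turn of direction in a gene called in neither fit also counted as unchanged. The alternative of log2 of mean FPKM has no p and was judged by size. Genes given only for comparison, such as klf9 and pmp22, were not among the 189. These values include the 48 fits without 1 library, and the fits without a season, where the rule fixes the direction of members. Of 196 values that lost their call, 185 did so with season means as units. The scalings moved the share of higher calls over the groups from 43.4% to 51.7% (median-ratio) and 50.2% (quantile).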
